A study of Mus musculus with 2 samples.

Results

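CD8 single-positive T cells, the T cells that carry the CD8 co-receptor without CD4, were 153 of the 10998 cell barcodes in 2 single-cell RNA sequencing (scRNA-seq) libraries of the infarcted neonatal mouse heart. They were chosen by a rule on their own transcript counts, with 46 cells in the WT library and 107 in the *Lyve1* KO library. The study asked what the loss of LYVE-1, a hyaluronan receptor carried by lymphatic endothelium and by resident macrophages, does to immune cells after myocardial infarction (MI). In the WT group, mice with an intact *Lyve1* gene underwent MI at postnatal day 2, and their hearts were collected after a further 7 days, when the animals were 9 days old. In the *Lyve1* KO group, mice lacking *Lyve1* had the same operation and collection. Live CD45+ cells that were negative for the dead-cell dye 7-AAD were sorted from 5 hearts per genotype and pooled into 1 library per genotype. No uninjured heart was part of this CD45+ experiment, so every cell described here comes from an infarcted heart. The study's assignment of cells to single hearts was not used here, so each genotype is 1 sample and no difference between genotypes was tested against the spread between hearts. The 95% intervals given below cover counting error alone.

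T cells that leave the thymus with CD8 recognise peptides on MHC class I molecules. Naive CD8 cells carry the lymph node homing receptor CCR7 and the transcription factors TCF1 (*Tcf7*) and LEF1. After stimulation they gain chemokines such as CCL5, interferon gamma and the cytotoxic proteins granzyme and perforin. In the first weeks of life, when the T cell pool is still filling, some CD8 cells also take on memory-like features, with EOMES and the interleukin 15 receptor chain CD122 (*Il2rb*), without having met a foreign antigen.

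A barcode counted as a member when it had at least 1000 genes and at most 10% mitochondrial transcripts, and when its unique molecular identifiers (UMIs, each standing for 1 captured RNA molecule) met a set of limits. These were at least 3 UMIs summed over the CD3 chains *Cd3d*, *Cd3e* and *Cd3g*, at least 2 of *Cd8b1* (CD8 beta chain) and 0 of *Cd4*. Cells with 2 or more UMIs over the thymocyte genes *Rag1*, *Dntt* and *Arpp21*, 2 or more of *Trdc* (gamma-delta T cell receptor), 2 or more of *Csf1r* (macrophages) or 3 or more of *Cd79a* (B cells) were left out. The gene and mitochondrial limits left 3380 of 5713 WT barcodes and 2769 of 5285 KO barcodes. Of these, 370 WT and 556 KO barcodes met the CD3 limit, and 102 and 183 of them also met the *Cd8b1* limit. The *Cd4* limit then removed 47 WT and 67 KO cells, and the thymocyte limit removed a further 9 and 5. The *Trdc* limit removed 2 KO cells, the *Cd79a* limit another 2, and the *Csf1r* limit 0. The gate genes describe the choice and are no finding. Just outside the *Cd8b1* limit, 5 WT and 2 KO cells had 1 UMI and met every other condition. Just inside, 0 WT and 5 KO cells had 2 UMIs, and 1 WT and 2 KO cells had 3. At 1 or 2 UMIs of *Cd4*, 1 KO cell with 2 UMIs met every other condition, and 0 WT cells did. The 2 tables shared 9 barcodes, 0 of them among the members.

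The label held against its markers. *Cd8a* (CD8 alpha chain), which the rule did not use, was found in 42 of 46 WT and 100 of 107 KO cells. Its level was 335 (297 to 377) and 362 (335 to 390) UMIs per 1000000 UMIs of the members (CPM). These intervals overlap, so no difference in *Cd8a* was detectable at this depth. *Nkg7*, a cytotoxic granule protein, stood at 727 and 638 CPM, *Ctsw*, a cathepsin of cytotoxic cells, at 369 and 384 CPM, and *Themis*, a T cell receptor signalling adaptor, at 574 and 565 CPM. *Cd8a* was at 0.178 CPM in B cells and 0.0474 CPM in macrophages of the WT library and had 0 UMIs in both of the KO library. The T cell receptor constant genes *Trac* and *Trbc2* were at 125 and 609 CPM in WT members and at 124 and 641 CPM in KO members. *Zbtb16*, which marks invariant natural killer T cells, had 0 UMIs in the members of both libraries. Of the gamma chain constant genes, *Tcrg-C1* had 3 UMIs in WT and 4 in KO members, *Tcrg-C2* 0 and 2, and *Tcrg-C4* 0 and 0.

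Transcripts of other cell types were low for macrophages, neutrophils and cardiomyocytes and higher for the B cell and NK lists. Of 12 macrophage genes, 0 reached 50 UMIs over both libraries, and they summed to 46.5 CPM in WT cells and 43.9 in KO cells, with *Fcgr3* the most abundant. The 7 neutrophil genes summed to 3.58 and 16.2 CPM, and the 10 cardiomyocyte genes to 1.19 and 4.18 CPM. The 12 B cell genes summed to 226 and 212 CPM, most of it *Ighm*, which was in 37 of 46 WT and 83 of 107 KO members, while *Ms4a1*, *Pax5* and *Igkc* were at 0. Of the 8 natural killer (NK) cell genes, *Gzma*, *Eomes* and *Tyrobp* passed 50 UMIs, and the list summed to 629 CPM (WT) and 264 CPM (KO), most of it *Gzma*. The defining NK gene *Ncr1* had 5 UMIs, all in 1 WT cell that also had 29 UMIs of *Tyrobp*. The 10 thymocyte genes summed to 57.3 and 55.9 CPM with *Rag1*, *Rag2*, *Ptcra* and *Cd4* at 0, the 5 erythroid genes to 21.5 and 48.6 CPM, and the 9 endothelial and fibroblast genes to 99.1 and 128 CPM, almost all *Pecam1*. The 8 CD4 T cell genes summed to 72.8 and 59.5 CPM, led by *Ctla4*.

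CD8 single-positive T cells took a larger share of the KO library than of the WT library. They were 1.36% (0.998 to 1.81) of WT cells within the gene and mitochondrial limits and 3.86% (3.18 to 4.65) of KO cells, higher in KO by 2.50 points (1.71 to 3.36). Cells were assigned to sex by *Xist* or Y-linked UMIs, which placed 31 WT and 57 KO members as male and 12 and 40 as female, with 3 and 10 unassigned. Among male cells the share was 1.65% in WT and 4.16% in KO, and among female cells 1.30% and 4.41%, so the share was higher in KO within each sex. The 2 sexes come from the same libraries and are not replicates.

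The size of the difference depended on what the CD8 cells were counted against. All cells with the CD3 limit were 10.9% of the WT and 20.1% of the KO cells within limits, and CD4 single-positive T cells (the same limits with at least 2 UMIs of *Cd4* and 0 of *Cd8a* and *Cd8b1*) were 2.25% (76 cells) and 4.95% (137 cells). Macrophages, with at least 3 UMIs of *Csf1r*, were 55.1% of the WT and 43.8% of the KO cells, so shares of all cells move with them. Without macrophages in the denominator, CD8 cells were 3.03% (2.23 to 4.02) and 6.88% (5.67 to 8.25). Among cells with the CD3 limit they were 12.4% (9.25 to 16.2) in WT and 19.2% (16.0 to 22.8) in KO, a difference of 6.81 points (1.97 to 11.4). Thymocyte-like cells with 2 or more UMIs of *Rag1*, *Dntt* and *Arpp21* numbered 104 in WT and 62 in KO among all cells within limits, and their part in that share was not tested. Of CD8 plus CD4 cells, CD8 cells were 37.7% (29.1 to 46.9) in WT and 43.9% (37.5 to 50.3) in KO, and this difference of 6.15 points had an interval from -4.59 to 16.4.

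Within sex, the shares among T cells did not move alike. Of male cells with the CD3 limit, CD8 cells were 19.4% in WT and 18.4% in KO, and of female ones 8.33% in WT and 25.2% in KO. The higher CD8 share of CD3 cells was thus seen in the female and not in the male cells of these 2 libraries. In male cells the difference was -0.988 points (-8.85 to 6.15). The WT female share rests on 12 of 144 cells. Of the WT cells with the CD3 limit, 35 of 144 female and 66 of 160 male ones were CD8 or CD4 single-positive, so the other CD3 cells also weigh on it. Whether the sexes differ was not tested.

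**Figure D1:**
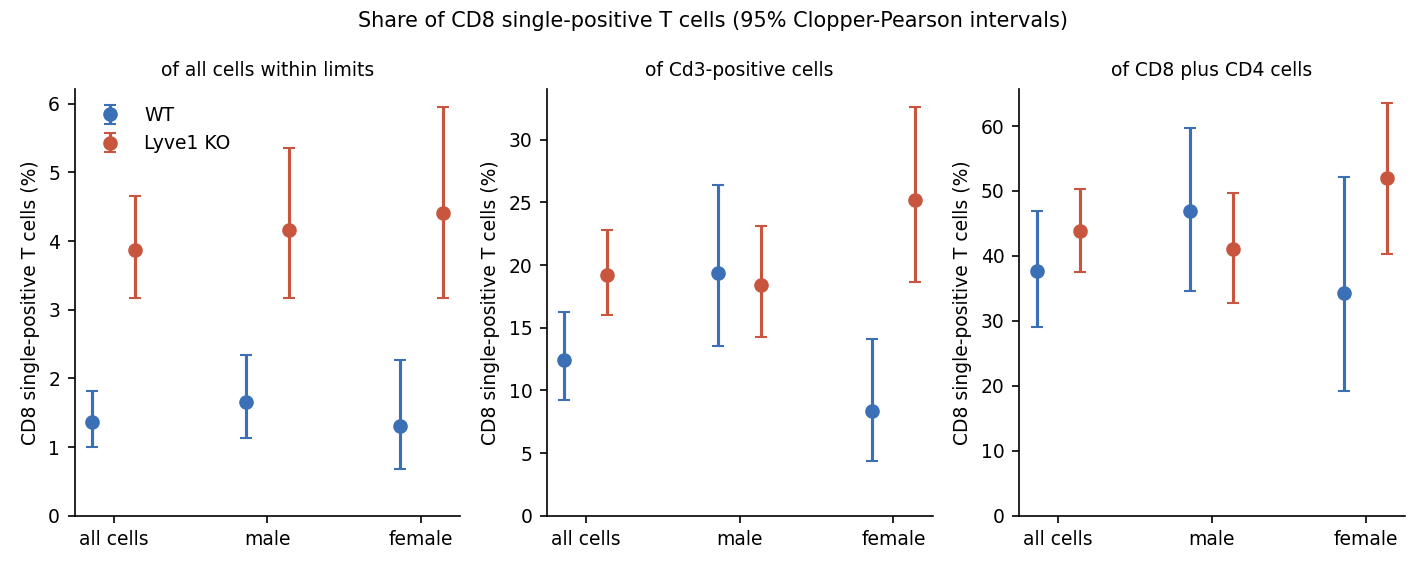
Share of CD8 single-positive T cells (y axis, percent) among all cells within limits, among cells with the CD3 limit and among CD8 plus CD4 cells, for all, male and female cells (x axis). Points are the share in each library, with WT in blue and *Lyve1* KO in red, and bars are 95% Clopper-Pearson intervals. The intervals of WT and KO stay apart for the share of all cells within limits (1.36% and 3.86%) and overlap for the share of CD8 plus CD4 cells (37.7% and 43.9%).

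Against CD4 single-positive T cells of the same library, CD8 cells had higher levels of *Gzma*, *Nkg7*, *Klrd1* and *Klrc1*, and lower levels of the receptor gene *Klrg1*. The *Gzma* level came from 7 of 46 WT and 8 of 107 KO cells, mostly from 2 cells of each library, and *Klrc1* was in 12 and 17 cells. Genes of the gates and *Cd8a*, which the CD4 gate sets to 0, are left out, since they define the cells compared. Of the 5263 genes with at least 50 UMIs in each library, 42 (0.798%) were at least 2-fold higher in CD8 cells in both libraries and 91 (1.73%) were at least 2-fold lower, on the scale of log2(CPM + 10). The limit was applied over CD8 and CD4 cells together, so a gene could pass through the class where it is high. Except for *Nkg7* and *Ly6c2*, the 8 highest genes had fewer than 50 UMIs in CD4 cells of each library, so the counts and values are a description. The highest was *Gm44174*, a transcript annotated at chr6:71353035-71373284 (GRCm38, plus strand) between *Cd8b1* and *Cd8a*. It stood at 248 (WT) and 210 (KO) CPM in CD8 cells and at 0 UMIs in the CD4 cells of both libraries. *Klrd1* (CD94), the partner chain of the NKG2 receptors, was at 288 against 14.2 CPM in WT and 309 against 7.75 CPM in KO. Its partner *Klrc1* (NKG2A) was at 84.7 against 3.79 CPM and at 84.1 against 0 CPM. *Ly6c2*, a surface protein of memory-like CD8 cells, was at 631 against 32.2 CPM and at 431 against 40.2 CPM, and the transcription factor gene *Eomes* at 112 against 0.948 CPM and at 72.6 against 0.969 CPM.

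The other genes among the 8 highest were *Gzma*, *Nkg7* and *Cd163l1*. *Nkg7* differed by 2.80 on the log2 scale in WT and by 4.02 in KO, and *Cd163l1*, a scavenger receptor family gene, by 2.53 and 2.57. The 8 genes lowest in CD8 cells were *Cd40lg*, *Tnfrsf4*, *St8sia6*, *Il2ra*, *Ly6c1*, *Foxp3*, *Frmd5* and *Ctla4*, which include the CD40 ligand of helper cells and the transcription factor and receptors of regulatory T cells. *Cd40lg* was at 3.58 CPM (WT) and 1.04 CPM (KO) in CD8 cells, against 220 and 145 CPM in CD4 cells. Of the 16 effector and cytotoxic genes measured, 4 were at least 2-fold higher and 3 at least 2-fold lower in CD8 cells of both libraries. Over all 5263 genes the shares were 0.798% and 1.73%. The medians of the list were -0.20 and 0.11. Its genes could also pass the UMI limit through the class where they are high, as *Gzma* did with 13 and 3 UMIs in CD4 cells. *Klrg1* was at 8.35 against 61.6 CPM in WT and at 9.40 against 127 CPM in KO. *Gzmb* was at 124 against 183 CPM in WT, short of 2-fold, and at 38.6 against 194 CPM in KO, and came from few cells of either class, 4 CD8 and 10 CD4 cells in WT and 7 and 8 in KO. The CD4 T cell genes with enough UMIs passed mostly through CD4 cells, *Foxp3* for example with 1 and 2 UMIs in CD8 and 173 and 165 in CD4 cells, and the 20 genes of the T cell receptor complex had medians near those of all genes (-0.14 and -0.29 for the 17 measured, against -0.05 and -0.05).

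Sequences before the transcription start are shown for 4 of these genes, *Gzma*, *Ly6c2*, *Klrc1* and *Eomes*, because their summed levels were higher in CD8 than in CD4 cells of both libraries. They are the 250 bases upstream of the start in RefSeq (GRCm38.p6), written 5′ to 3′ on the strand of the gene, at chr13:113100982-113101231 (minus strand), chr15:75111972-75112221 (minus strand), chr6:129678974-129679223 (minus strand) and chr9:118477939-118478188 (plus strand). Of the 8 genes, 6 had an entry, with *Nkg7* and *Cd163l1* not shown. The *Cd163l1* window holds 0 matches of the letters below, and the *Nkg7* window overlaps annotated exons. Capitals mark TGTGGT, the core of sites bound by RUNX factors such as the CD8 lineage factor RUNX3, or its reverse complement ACCACA.
Gzma: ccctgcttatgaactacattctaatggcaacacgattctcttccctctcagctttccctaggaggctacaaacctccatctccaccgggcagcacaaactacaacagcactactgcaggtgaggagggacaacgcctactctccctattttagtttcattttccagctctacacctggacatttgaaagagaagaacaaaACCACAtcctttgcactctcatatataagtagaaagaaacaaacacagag
Ly6c2: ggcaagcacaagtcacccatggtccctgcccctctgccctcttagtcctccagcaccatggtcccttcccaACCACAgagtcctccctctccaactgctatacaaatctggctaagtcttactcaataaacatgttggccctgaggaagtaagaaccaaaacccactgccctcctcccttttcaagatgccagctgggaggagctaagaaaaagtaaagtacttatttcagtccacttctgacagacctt
Klrc1: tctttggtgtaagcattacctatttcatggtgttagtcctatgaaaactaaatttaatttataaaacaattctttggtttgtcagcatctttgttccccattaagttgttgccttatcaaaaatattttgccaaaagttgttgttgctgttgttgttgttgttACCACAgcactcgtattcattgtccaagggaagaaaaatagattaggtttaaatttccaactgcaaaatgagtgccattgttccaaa
Eomes: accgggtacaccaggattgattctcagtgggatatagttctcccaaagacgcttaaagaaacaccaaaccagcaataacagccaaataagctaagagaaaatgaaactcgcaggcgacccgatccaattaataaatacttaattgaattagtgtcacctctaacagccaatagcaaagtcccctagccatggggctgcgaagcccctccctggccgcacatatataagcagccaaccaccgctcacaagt
The letters occur once each before *Gzma*, *Ly6c2* and *Klrc1* and are not in the *Eomes* window. On either strand they are in 14.2% of the 27025 promoters of the same length, counting 1 start per gene. A match describes the letters and says nothing of binding. *Runx3* itself was at 196 (WT) and 230 (KO) CPM in CD8 cells, and at 75.8 and 57.6 CPM in CD4 cells.

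To describe naive and effector states, each member was thinned to 7000 UMIs, which kept 41 of 46 WT and 97 of 107 KO cells. A thinned cell was called effector-type with at least 2 UMIs over 12 genes (*Ccl5*, *Gzma*, *Gzmb*, *Gzmk*, *Prf1*, *Ifng*, *Klrg1*, *Klrd1*, *Klrk1*, *Cxcr3*, *Cxcr6* and *Fasl*). It was called naive-type with fewer of those and at least 2 UMIs over 6 naive genes, among them *Ccr7*, *Lef1*, *Tcf7*, *S1pr1* and *Klf2*. These classes are ranges of a sum and not cell types. Effector-type cells were 70.7% (54.5 to 83.9) of the WT and 73.2% (63.2 to 81.7) of the KO members, and the difference of 2.46 points had an interval from -12.6 to 19.6. All others were naive-type (12 WT and 26 KO cells), and 0 cells were neither, which allows a share of up to 7.32% in WT and 3.09% in KO when 3 cells are taken as the limit of a count of 0 (Clopper-Pearson upper bounds 8.60% and 3.73%). Over all possible draws of the thinning, the expected effector-type share was 70.5% in WT and 73.6% in KO. Without thinning it was 73.9% and 84.1%. Near the limit, 4 WT and 14 KO cells had 1 UMI of the effector genes, and 1 and 9 had 2.

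The effector-type rule picked up little in cells that should lack these genes. At the same depth it took in 0 of 286 WT B cells, which allows a share of up to 1.05%, and 2 of 385 KO B cells (0.519%), and 2.68% and 1.66% of macrophages. Among CD4 single-positive T cells it took in 31.7% (20.3 to 45.0) in WT and 13.2% (7.87 to 20.3) in KO. The naive gene sum has no such contrast, since B cells also carry these genes and 98.6% of WT and 99.5% of KO B cells passed it, as did 72.4% and 69.1% of macrophages. The naive-type class therefore rests on the lack of effector genes.

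The 2 classes overlapped in their naive genes. The naive sum of effector-type cells ran from 0 to 50 UMIs in WT (median 24) and from 2 to 84 in KO (median 27), and that of naive-type cells from 21 to 52 (median 35) and from 15 to 69 (median 36.5). Of the effector-type cells, 28 of 29 in WT and 71 of 71 in KO also passed the naive gene limit. Over all thinned members the effector sum ran from 0 to 88 UMIs in WT (median 5) and from 0 to 388 in KO (median 4). *Klrd1* was the most widely shared effector gene, in 30 of 41 WT and 73 of 97 KO cells, and *Ccl5* followed with 21 and 43 cells. Neither was found in any thinned B cell, and *Ccl5* was in 2.32% of WT and 1.31% of KO macrophages. Of the *Ccl5*-positive cells, 18 of 21 in WT and 40 of 43 in KO had *Lef1*, and 15 and 25 had *Ccr7*, which was in 0.774% and 0.611% of macrophages. The other effector genes were each in fewer cells. *Cxcr3*, a homing receptor of effector and memory cells, was in 8 WT and 24 KO cells and *Cxcr6* in 6 and 19. *Gzmb* was in 3 WT and 6 KO cells and *Ifng* in 1 and 7. With *Ccl5* and *Klrd1* left out of the sum, 24.4% of WT and 20.6% of KO cells stayed effector-type.

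**Figure D2:**
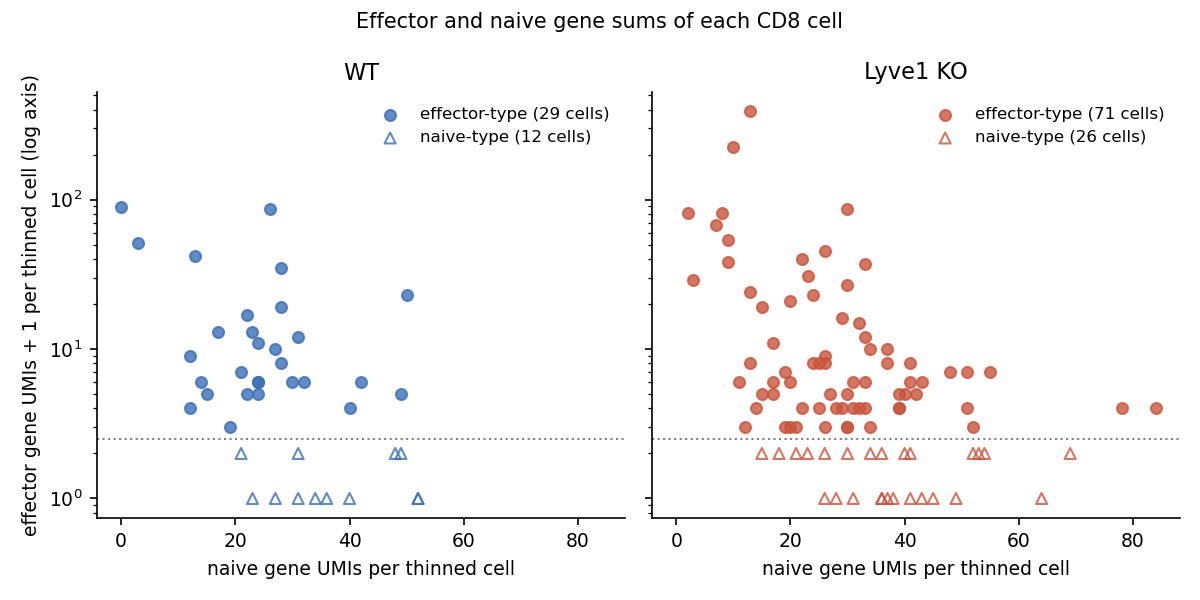
Each thinned CD8 cell by its UMIs over the 6 naive genes (x axis) and over the 12 effector genes plus 1 (y axis, log axis), for WT (left) and *Lyve1* KO (right). Filled circles are effector-type and open triangles naive-type cells, and the dotted line is the limit between them. The classes overlap along the x axis, with medians of 24 and 35 naive UMIs in WT and 27 and 36.5 in KO, and the effector sums reach 88 in WT and 388 in KO.

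The classes were also compared in genes outside the class rule. Of 2645 genes with at least 50 UMIs in each library, 19 (0.718%) were at least 2-fold higher in effector-type cells of both libraries and 5 (0.189%) at least 2-fold lower. The limit of 50 UMIs was applied over both classes together, and effector-type cells held 572389 UMIs in WT and 1381138 in KO against 235412 and 475456 in naive-type cells. A gene confined to effector-type cells could therefore pass through that class alone, and the counts of 19 and 5 are not a measure of balance. All 10 of the highest genes had fewer than 50 UMIs in the naive-type cells of each library and so passed through the effector-type class, and their values are given as a description. *Klrc1*, *S100a4*, *Ccr2* and *Trbv13-1* had 0 UMIs in naive-type cells, and *Trbv13-1* was the segment of only 1 WT and 3 KO cells. The UMIs of *S100a4* and *S100a6* came mostly from the few cells with granzyme transcripts given below. *Klrc1* led, at 124 (WT) and 113 (KO) CPM in effector-type cells and at 0 UMIs in the naive-type cells of both. *Ly6c2* was at 886 against 85.0 CPM in WT and at 565 against 92.5 CPM in KO, and *S100a6*, a calcium-binding protein of activated T cells, at 201 against 17.0 CPM and at 216 against 16.8 CPM. *S100a4*, *Ctla2a*, *Ccr2*, *Arl4d*, *Il18rap* (an interleukin 18 receptor chain), *Tbx21* (T-bet, the type 1 effector transcription factor) and the receptor segment *Trbv13-1* completed the 10 highest. In WT *Tbx21* was at 97.8 against 8.50 CPM and in KO at 105 against 25.2 CPM. The memory-type genes *Eomes* and *Il2rb* also passed through the effector-type class. *Eomes* was at 148 against 38.2 CPM in WT and at 87.6 against 29.4 CPM in KO, and *Il2rb* at 330 against 76.5 CPM and at 219 against 103 CPM. *Cd44*, a hyaluronan receptor and a classical mark of antigen experience, fell short of 50 UMIs in WT, with 37 in effector-type and 5 in naive-type cells. In KO it had 106 and 12 UMIs. Its levels, given as a description, were 64.6 against 21.2 CPM in WT and 76.7 against 25.2 CPM in KO, log2 differences of 1.26 and 1.30.

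The naive and quiescence list did not separate the classes in genes outside the rule. Of its 18 genes 11 were measured, 0 were past 2-fold in both libraries, and the medians were 0.25 (WT) and -0.29 (KO). *Bach2* was lower in effector-type cells, while *Il7r* was higher, at 374 against 187 CPM in WT and at 547 against 309 CPM in KO. On the naive-type side, the thymic and gut homing receptor *Ccr9* was farthest apart. It was at 195 (WT) and 156 (KO) CPM in naive-type cells and at 14.0 and 13.8 CPM in effector-type cells. Few cells carried it, 8 in WT and 18 in KO, with 23 of the 54 WT UMIs and 35 of the 95 KO UMIs in 1 cell each. The cycling cells held 16 of the WT and 63 of the KO UMIs of *Ccr9*. *Mki67*, a gene of dividing cells, was at 246 (naive-type) against 114 (effector-type) CPM in WT and at 448 against 221 CPM in KO. Naive-type cells held 58 (WT) and 213 (KO) UMIs of *Mki67* and effector-type cells 65 and 305. The cycling cells, 5 in WT and 8 in KO, held 112 and 489, so few cells set these levels. Without thinning, 4 and 6 of the cycling cells were effector-type. The part of *Mki67* in the *Ccr9* difference was not tested. *Rgcc*, *Cpm*, *Isg15* and *Tubb2a* were the other genes past 2-fold. *Sox4*, a transcription factor kept by recent thymic emigrants, was at 293 against 48.9 CPM in WT and at 98.8 against 51.4 CPM in KO. It passed 2-fold in WT alone. Of the 20 thymic and recent emigrant genes 8 were measured, and only 1 was at least 2-fold lower in effector-type cells of both libraries. Their median log2 differences were 0.01 (WT) and -0.26 (KO), against -0.01 and -0.05 for all genes. *Itm2a*, of the same list, was higher in effector-type cells, at 224 against 157 CPM in WT and at 176 against 128 CPM in KO. Of the CD8 markers, *Nkg7* was higher in effector-type cells, at 849 against 484 CPM in WT and at 755 against 351 CPM in KO, past 2-fold in KO alone. *Cd8a* was at 304 against 416 CPM in WT and at 353 against 404 CPM in KO, and the gate gene *Cd8b1* at 1095 against 1058 CPM and at 1196 against 1277 CPM.

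**Figure D3:**
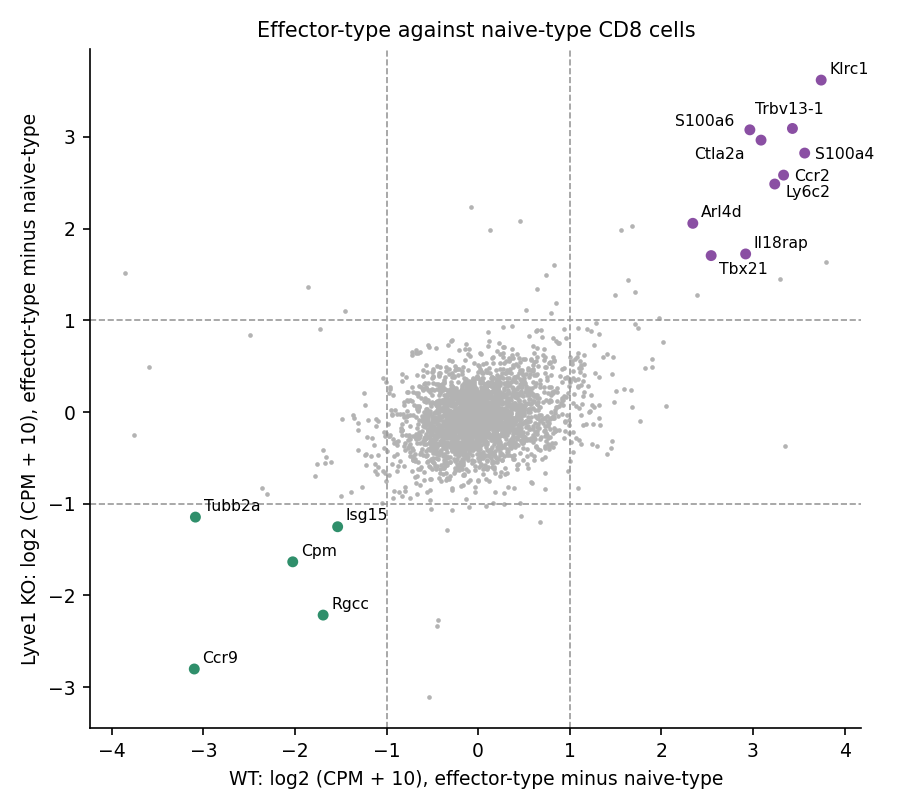
Log2 difference of CPM + 10 between effector-type and naive-type CD8 cells in WT (x axis) and in *Lyve1* KO (y axis), for the 2645 genes measured without the genes of the class rule. Purple points are the 10 highest genes in both libraries and green points the 5 lowest, and dashed lines mark 2-fold. *Klrc1* sits farthest up in both libraries (3.74 and 3.62) and *Ccr9* farthest down (-3.10 and -2.80).

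A split of the effector-type cells at 20 effector UMIs, chosen after their values were seen, set 6 WT and 17 KO cells apart. *Ccl5* and *Klrd1* are part of that sum. *Ccl5* was at 3262 (WT) and 7427 (KO) CPM above the split, against 531 and 286 CPM in effector-type cells below the split. Their *Ccr7* was lower, at 214 and 220 CPM against 538 and 458 CPM, and so was *Il7r*, the interleukin 7 receptor that keeps resting T cells alive, at 138 and 262 CPM against 454 and 648 CPM, while naive-type cells had 187 and 309 CPM of *Il7r*. *S100a4* had 61 of the 62 UMIs of WT and 77 of the 84 UMIs of KO effector-type cells above the split, and *S100a6* 91 of 115 and 261 of 299. *S100a6* was at 629 and 719 CPM above the split and at 56.1 and 37.3 CPM below it. Few cells set these totals. The 5 WT and 10 KO cells with at least 2 UMIs of *Gzma* and *Gzmb* together held 61 and 77 UMIs of *S100a4* and 79 and 228 of *S100a6*. *Klrd1* did not follow, at 346 and 399 CPM above and 395 and 391 CPM below, and *Ly6c2* also differed little, at 802 and 573 CPM above and 914 and 562 CPM below.

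Granzyme transcripts were confined to few cells. At least 2 UMIs of *Gzma* and *Gzmb* together were found in 5 WT and 10 KO members (10.9% and 9.35%). At 10 or more there were 3 WT and 4 KO cells, and of these 2 in WT and 3 in KO had 0 UMIs of *Ccr7*, and 3 and 3 had 0 of *Il7r*. The highest WT cell had 238 UMIs of *Gzma* and 94 of *Gzmb*, and the next 115 of *Gzma*. Both of them used the receptor segment *Trbv17* and both were cycling, with 82 and 43 UMIs over 7 proliferation genes. The second of them is the cell with *Ncr1* and *Tyrobp*. In KO the highest cell had 162 UMIs of *Gzma* and 607 of *Ccl5* and was not cycling, and the next had 123 UMIs of *Gzma*, 506 of *Ccl5* and 417 proliferation UMIs. These 2 cells of each library held most of its *Gzma* UMIs, 364 in WT and 327 in KO.

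**Figure D4:**
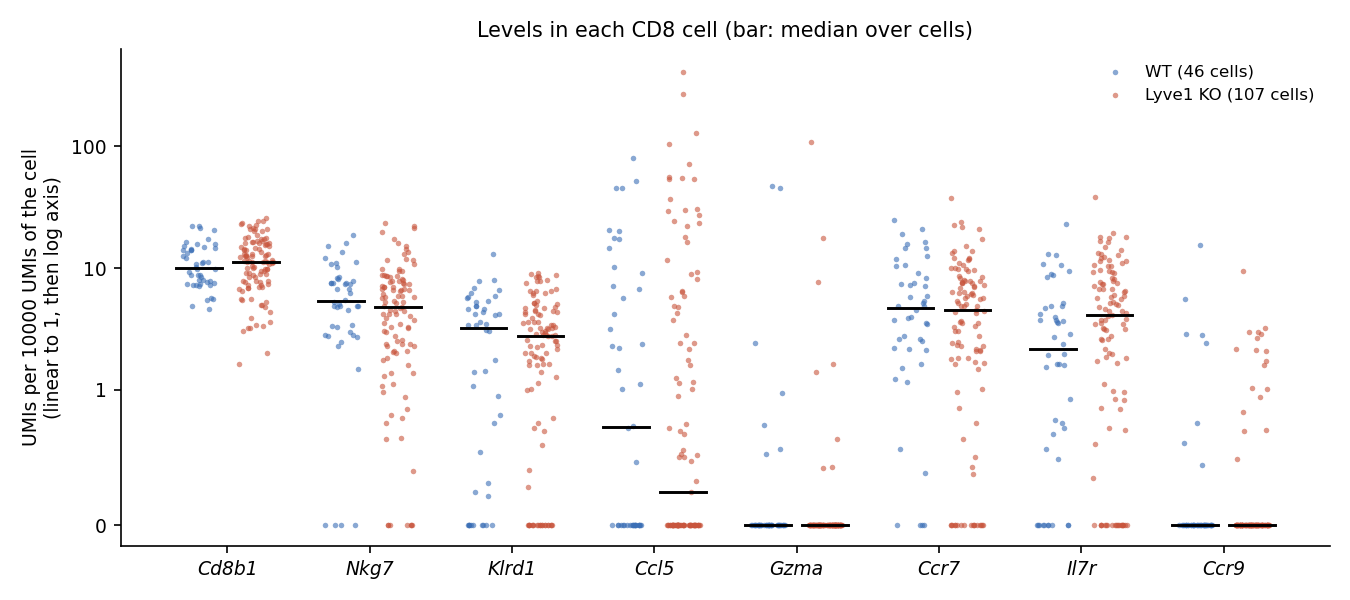
UMIs of 8 genes per 10000 UMIs in each of the 46 WT (blue) and 107 *Lyve1* KO (red) CD8 cells, on an axis that is linear to 1 and logarithmic above. Black bars are medians over cells. *Cd8b1* is above 0 in every cell, as the gate requires, and *Nkg7* and *Ccr7* in 42 and 42 WT and 100 and 90 KO cells, while *Gzma* is above 0 in 7 WT and 8 KO cells.

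Between genotypes, the CD8 cells were alike in most of their genes. Of 6354 genes with at least 50 UMIs over both libraries, 36 (0.567%) were at least 2-fold higher in KO and 39 (0.614%) at least 2-fold lower on the scale of log2(CPM + 10), and the median log2 ratio was -0.02. The median size of the ratio was 0.19 and its 95th percentile 0.64. The counts depend on the setting: 92 were higher and 84 lower with 1 CPM added in place of 10, 56 and 23 without each gene's highest cell in each library, and 112 and 59 in female cells. Of the 328 listed genes in the tables, 15 were past 2-fold. Only listed genes with at least 50 UMIs could be called, so 15 of 328 is not a share to set beside those of the 6354 genes. The 5 identity genes had 0 past 2-fold and a median of 0.06, and the 20 T cell receptor and signalling genes 0 and 0.06, with *Ptprc* (CD45) at 1652 and 1682 CPM. Of the 12 lineage regulators 11 had enough UMIs, 0 were past 2-fold and the median was 0.10.

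Among the 18 naive and quiescence genes, 1 was past 2-fold and the median was 0.15. That gene was *Dapl1*, found in naive T cells, with 42 UMIs in 8 WT cells and 226 in 28 KO cells, or 50.1 (36.1 to 67.8) and 118 (103 to 134) CPM. Its log2 ratio ran from 0.80 to 1.25 over the 11 alternative settings, so it was not past 2-fold in each of them. *Ms4a4b*, *Klf2*, *Lef1* and *Foxp1* were the most abundant, and *Ccr7* was level at 575 and 580 CPM. *Il7r* was at 322 (285 to 363) and 492 (462 to 525) CPM, with a lowest, median and highest cell of 0, 4 and 33 UMIs in WT and 0, 7 and 42 in KO, so the cells of the libraries overlap over most of the range. *Itga4*, the alpha 4 integrin chain, was at 277 (242 to 315) and 477 (447 to 509) CPM.

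Of the 28 effector genes, 21 had enough UMIs, 2 were past 2-fold higher, 3 lower, and the median was -0.07. *Ccl5*, the most abundant, was at 846 (785 to 911) CPM (WT) and 1568 (1513 to 1625) CPM (KO), a ratio of 1.85 (1.71 to 2.01). It was found in 25 of 46 WT and 54 of 107 KO cells with a median of 1 UMI in both, and the highest cells had 132, 132 and 110 UMIs in WT and 607, 506, 430 and 210 in KO. A few KO cells thus hold much of the library's *Ccl5*. Effector-type cells with fewer than 20 effector UMIs had 286 CPM in KO against 531 CPM in WT. That limit caps a sum that includes *Ccl5* and was set after the values were seen, so this direction is no finding. The share of thinned cells with *Ccl5* was 51.2% in WT and 44.3% in KO. The log2 ratio was 0.45 in male and 1.32 in female cells. *Ifng* had 1 UMI in WT and 82 UMIs in 9 KO cells, of which 28 came from 1 cell. *Xcl1*, a chemokine for cross-presenting dendritic cells, had 14 UMIs in 3 WT cells and 131 in 7 KO cells, 94 of them in 1 cell. Its log2 ratio of 1.55 fell to 0.67, short of 2-fold, without the highest cell of each library. *Gzma* was lower in KO, at 434 and 171 CPM from 7 and 8 cells, *Gzmb* at 124 and 38.6 CPM from 4 and 7 cells, and the chemokine *Ccl4* at 83.5 and 21.4 CPM from 5 and 11 cells. Without the highest cell of each library *Gzmb* and *Ccl4* turned to log2 ratios of 0.40 and 0.06, and without the cycling cells *Gzma* turned to 2.48.

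The memory-type list had 12 of 13 genes measured, 0 past 2-fold and a median of -0.16, with *Ly6c2* at 631 and 431 CPM and *Il2rb* at 253 and 191 CPM. Of the 5 measured genes of the 15 innate-like ones, *Tyrobp* was lower in KO (51.3 and 12.5 CPM), and 29 of its 43 WT UMIs were in the *Ncr1*-positive cell. Thymic and recent emigrant genes had 12 of 20 measured, 0 past 2-fold and a median of -0.05, with *Cd69* at 292 and 151 CPM and *Sox4* at 128 and 63.7 CPM. *Cd69*, an early activation and retention receptor, also counts among the 7 residency genes, of which 4 were measured, with a median of -0.74 and with *Rgs1* past 2-fold lower, at 106 (85.3 to 131) and 39.2 (30.8 to 49.1) CPM. *Rgs1*, a regulator of G protein signalling linked to tissue retention, kept a log2 ratio of -1.23 without its highest cells. Over the 11 alternative settings it ran from -1.94 to -0.85, so its 2-fold call did not hold in each of them.

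Immediate early genes are readily induced when tissue is dissociated. Of the 20 genes 19 were measured, 0 were past 2-fold and the median was -0.16. The heat shock gene *Hspa1a* was at 1146 and 590 CPM, in 28 of 46 WT and 41 of 107 KO cells, with a log2 ratio of -1.38 in male and 0.11 in female cells, and *Junb* at 1892 and 1336 CPM. Whether handling of the 2 pools contributed to these levels, or to *Cd69*, which is on the same list, was not tested.

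Of the 8 NK cell genes 3 were measured, and 2 of them, *Gzma* and *Tyrobp*, were past 2-fold lower in KO, with a list median of -1.30. The lists that follow in this paragraph had 0 genes past 2-fold. These were T cell receptor stimulation (9 of 13 measured, median 0.03, led by *Nr4a1* at 350 and 254 CPM), inhibitory receptors (2 of 9, median -0.15), homing receptors (16 of 17, median -0.05, led by *Selplg*), cytokine receptors (15 of 17, median -0.09, led by *Il2rg*) and survival and death genes (14 of 16, median -0.15). MHC class I and antigen processing genes (15 of 15) had a median of 0.11, with *B2m* at 2580 and 2526 CPM. Interferon response genes (14 of 22) had a median of 0.09. The inhibitory receptor PD-1 (*Pdcd1*) had 5 UMIs in WT and 6 in KO cells.

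Proliferation genes were the list with most members past 2-fold, 6 higher and 1 lower of 20, with a median of 0.39. The higher ones were *Ube2c*, *Cenpf*, *Tpx2*, *Cdk1*, *Top2a* and *Nusap1*, which act from late S phase to mitosis, and the lower one *Tyms*, a nucleotide synthesis enzyme. *Ube2c* had 16 UMIs in 4 WT cells and 317 in 10 KO cells, and *Cenpf* 29 in 4 and 262 in 9. Cycling cells, with at least 20 UMIs over 7 proliferation genes, numbered 5 in WT and 8 in KO (10.9% and 7.48% of members), and held 69.8% and 72.6% of the list's UMIs. Without them the log2 ratio of *Ube2c* was 0.64, of *Cenpf* 0.17 and of *Top2a* -0.09. The share of cycling cells itself differed by -3.39 points (-16.1 to 5.61).

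Over all genes, the 5 highest in KO were *Ube2c*, *Ifng*, *Trbv16*, *Cenpf* and *Xcl1*, and the 5 lowest *Trim12a*, *Trbv17*, *Lgals3*, *Trbv3* and *5830411N06Rik*. *Trim12a* had 97 UMIs in 36 of 46 WT cells and 0 in the KO cells, at least 73.9-fold lower against a floor of 3 UMIs over the KO members. In the other lymphocytes of the KO library it had 0 UMIs in CD4 T cells and 1 UMI in B cells, against 106 and 91.7 CPM in WT. The gene lies at chr7:104299894-104315466 and *Lyve1* at chr7:110850607-110863239 (GRCm38). *Lgals3*, a galectin, had 85 of its 99 WT UMIs in 1 cell. *5830411N06Rik* was found in 19 WT and 20 KO cells at 131 and 26.6 CPM. The 3 *Trbv* genes are variable segments of the T cell receptor beta chain, and a few cells decide their totals.

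**Figure D5:**
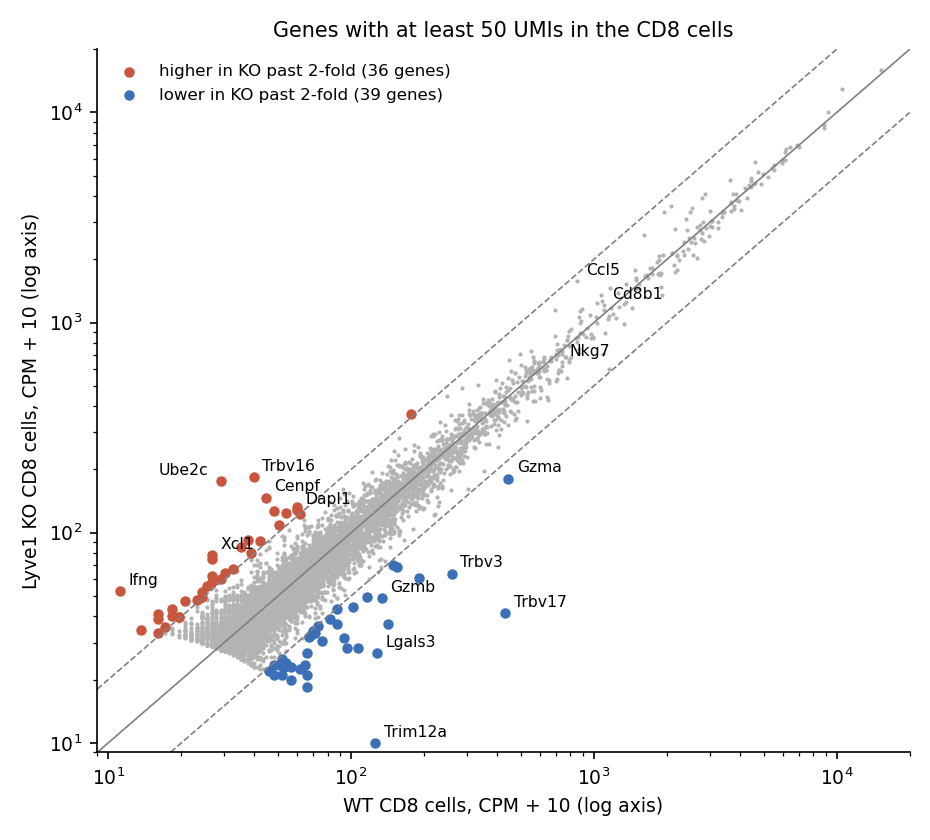
CPM + 10 in the WT (x axis) and *Lyve1* KO (y axis) CD8 cells for the 6354 genes with at least 50 UMIs, on log axes. Red points are 36 genes at least 2-fold higher and blue points 39 genes at least 2-fold lower in KO, with the solid line at equal levels and dashed lines at 2-fold. *Cd8b1* (1086 and 1204 CPM) lies close to the line and *Ccl5* (846 and 1568 CPM) just inside the 2-fold line, with *Trim12a* at 0 in KO.

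*Lyve1* itself was low in the CD8 cells. It had 0 UMIs in WT members, where the floor of 3 UMIs is 3.58 CPM, and 15 UMIs in 12 KO members (7.83 CPM, 4.38 to 12.9). Over all cells within limits it was at 245 (WT) and 13.1 (KO) CPM, with macrophages at 344 and 15.4 CPM and B cells at 0.355 and 5.45 CPM. The counts do not show which part of the gene was read. *Cd44*, the other hyaluronan receptor of T cells, was at 56.1 (41.2 to 74.6) and 63.2 (52.4 to 75.5) CPM, in 22 of 46 WT and 48 of 107 KO cells. Of the 6 hyaluronan receptor genes 2 were measured, with 0 past 2-fold.

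The receptor segments were spread over many cells. A *Trbv* segment with at least 2 UMIs was found in 44 WT and 99 KO cells, with 16 and 19 segments in use. The largest group was 6 WT cells (*Trbv3* and *Trbv12-2*, 13.6% each) and 15 KO cells (*Trbv12-2*, 15.2%). *Trbv17* led in 5 of the 44 WT cells. A segment alone does not define a clone.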

How the data were processed

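Live CD45+ cells of 2 pools of 5 hearts were profiled with 10x 5′ chemistry. The authors counted UMIs per gene and barcode with Cell Ranger on mm10 (8.0.1 in the deposited headers and the submitters' notes; the paper names another version) and deposited raw counts for 32285 genes, without normalization, totalling 67968938 UMIs in WT and 61555917 in KO. Members held 3393 to 52321 UMIs (median 16628) in WT and 3811 to 70360 (median 16638) in KO. The study's assignment of cells to hearts, after which its authors removed doublets, was not used here. No doublet caller was run: the gate leaves out macrophage and B cell transcripts, and an alternative drops members with 3 or more UMIs over 7 genes of other lineages (4 WT and 7 KO cells).

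For each gene, the UMIs of a class of cells in 1 library were added up and expressed per 1000000 UMIs of that class (CPM), with exact Poisson intervals. Log2 ratios used CPM + 10 and genes with at least 50 UMIs. Shares have Clopper-Pearson and differences Newcombe 95% intervals, which cover counting error only. With 1 library per genotype there was no test. Thinning was without replacement, to the 10th percentile of the members' UMIs rounded down to a multiple of 100, with a fixed seed. The ratio and its interval were tested on simulated library totals, and the thinning on the WT members. The simulated totals were Poisson draws without single cells that hold most UMIs of a gene. The intervals of the shares were not tested in this way. The members and the 28 gene lists were chosen with earlier results of these data known. Genes are named by a rule: the markers and gate genes, *Lyve1* and *Cd44*, the most abundant genes of each list and every listed gene past 2-fold, the 5 highest and 5 lowest between genotypes, the 8 highest and 8 lowest against CD4 cells, and the 10 highest and 5 lowest between the classes. Other genes were chosen after their values were seen. Python 3.11.15, numpy 2.4.6, scipy 1.17.1, pandas 2.3.3 and matplotlib 3.10.9 were used. Gene positions are from GENCODE on GRCm38. Some genes of the lists and of the naive sum are not reported here.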

Additional observations from a re-analysis of the deposited data

Results flagged for a closer look

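The KO minus WT difference had opposite signs in male and female cells for 3 shares. For the CD8 share of cells with the CD3 limit it was -0.988 points in male and 16.8 points in female cells, and for the CD8 share of CD8 plus CD4 cells -5.96 and 17.7 points. For the effector-type share of thinned members it was -2.10 points (28 WT and 51 KO cells) and 13.7 points (10 WT and 38 KO cells), with intervals from -19.4 to 18.4 and from -14.3 to 44.6. Over all possible draws of the thinning, the expected effector-type shares were 77.9% in WT and 73.3% in KO male cells, and 60.8% and 77.2% in female cells. Each sex is 1 set of cells per library, so the difference between the sexes was not tested.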

How the results depend on the processing

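The CD8 share of all cells within limits was higher in KO under each of the 6 alternatives run, by 2.13 to 3.10 points. In male cells alone the share of CD3 cells turned to -0.988 points and that of CD8 plus CD4 cells to -5.96, and in female cells they were 16.8 and 17.7. The effector-type share of KO cells was 84.1% without thinning, 87.6% with 1 effector UMI as the limit and 50.5% with 4, where KO minus WT was -12.9 points. Thinned to 2000 UMIs it was 38.3% in KO and 30.4% in WT. The 75 genes past 2-fold became 176 (92 higher, 84 lower) with 1 CPM added, 16 (10 and 6) with at least 200 UMIs, 114 (57 higher) with at least 10 UMIs and 171 (112 and 59, with 27 listed genes) in female cells. Without each gene's highest cell in each library, an alternative chosen after seeing the data, 56 were higher and 23 lower. Shifting the median ratio to 0 left 37 higher and 37 lower. Several single genes changed sign. Without members with UMIs of another lineage *Gzma* was 0.056 and *Gzmb* 1.10 (log2). In female cells *Ccl4* was 2.09, *Gzma* 3.06, *Gzmb* 0.10 and *Tyrobp* 1.05, and *Hspa1a* turned from -0.95 to 0.11. Without cycling cells, also chosen after seeing the data, *Gzma* was 2.48, *Gzmb* 0.36, *Lgals3* 0.53, *Nusap1* -0.45 and *Top2a* -0.089, and 11 of 21 named genes were no longer past 2-fold. Without the highest cells *Gzmb* was 0.40 and *Ccl4* 0.056. The cause was not tested. No paired analysis was possible because each genotype has 1 library.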
